A study of Mus musculus with 4 samples.

Results

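Amphiregulin and the receptors through which T cells sense the alarmins IL-33 and IL-18 were followed in hepatic CD4+ T cells of mice with diet-induced steatohepatitis (MASH). Of the 32285 genes in each count table, 5 were taken by their symbols: *Areg*, *Il1rl1*, *Gata3*, *Il18r1* and *Il18rap*. The WT library held cells of WT mice. The dKO library held cells of mice that carry *Cd4Cre* together with floxed alleles of both genes (*Nr4a1* fl/fl, *Nr4a2* fl/fl), and Cre driven by *Cd4* acts in T cells at large. All mice were male and received a choline-deficient, high-fat diet (CD, 60 kcal% fat, 0.1% methionine) for 8 weeks. The age of these mice is not given in the sources used here, and a library from mice on standard diet was not analysed here. CD4+ T cells sorted from the liver were pooled from 2 mice per genotype and captured in droplets with a 5′ kit, so each genotype is 1 library, the cells of the pooled mice cannot be told apart, and no test between genotypes was possible. Intervals in parentheses are 95% intervals of counting error only: exact Poisson for levels, conditional binomial for ratios and Clopper-Pearson for shares of cells. Levels are CPM, the unique molecular identifiers (UMIs) of a gene per 1e6 UMIs of the cells of a class. Where 2 values stand together with no library named, the first is that of the library labelled WT and the second that of the library labelled dKO.

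Amphiregulin, encoded by *Areg*, is a growth factor of the EGF family that is made as a membrane-bound precursor and released by proteases. Regulatory T cells (Tregs) and type 2 lymphocytes of many tissues produce it, and it acts on the epithelial and stromal cells around them. *Il1rl1* encodes ST2, the receptor chain that binds IL-33, a cytokine set free by damaged cells. *Gata3* encodes the transcription factor of type 2 T cells, which tissue Tregs also express. *Il18r1* encodes the chain that binds IL-18, and *Il18rap* its accessory chain, which is needed for signalling.

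Cells were assigned to classes by UMIs of marker genes other than the 5 genes described. After the filters on cells, 10556 and 17462 cells remained, with medians of 1679 and 1685 UMIs, and 6156 and 9579 of them were T cells. Counts of both targeted genes were higher in the library labelled dKO: in T cells *Nr4a1* was at 723 and 1898 CPM and *Nr4a2* at 203 and 435 CPM. The counts do not tell the floxed exons from the rest of either gene, and the libraries are named here by their labels. The tables shared 245 cell barcodes. Despite the sort, 1430 and 3648 cells carried markers of plasmacytoid dendritic cells (pDC-like). These served as a measure of background, from free RNA or from doublets with T cells, which were not told apart. In the library labelled WT, the T cell genes *Cd28* and *Lat* were at 91.2 and 104.6 CPM in them, against 469 and 579 CPM in Foxp3+ T cells. In the library labelled dKO these genes were at 47.2 and 69.1 CPM, against 339.9 and 634 CPM. *Cd4*, which mouse pDCs also carry, was at 217.8 CPM against 216.8 CPM in the first library and at 345 against 853 CPM in the second.

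Foxp3+ T cells, with at least 1 UMI of *Foxp3*, numbered 417 and 2848. Treg markers that were not used in the gate stood high in them, with 2097 and 3562 CPM for *Il2ra*, *Ctla4* and *Tnfrsf18* together. T cells without a UMI of *Foxp3* or of *Ikzf2*, which encodes Helios, numbered 4876 and 3616, and the same sum was 506 and 1501 CPM there. T cells with *Ikzf2* and without *Foxp3* numbered 812 and 3059, with 971 and 2922 CPM. No UMI of *Cd8a* was found in Foxp3+ T cells of either library, and the 7 basophil and mast cell markers together had 0 and 1 UMI. A cell in which no *Foxp3* UMI was captured may still express it, so the classes without *Foxp3* can hold Tregs.

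The genes lie at 3 places in the genome (GENCODE M21, GRCm38). *Areg* (ENSMUSG00000029378) is on the plus strand at chr5:91139599-91148432 with 1 annotated transcript. *Gata3* (ENSMUSG00000015619) is on the minus strand at chr2:9857078-9890034. The receptor genes follow each other on the plus strand of chromosome 1: *Il1rl1* (ENSMUSG00000026069) at chr1:40429570-40465415, *Il18r1* (ENSMUSG00000026070) at chr1:40465552-40500854 and *Il18rap* (ENSMUSG00000026068) at chr1:40515362-40551705. They span 122136 bases, with 136 bases between the annotated ends of *Il1rl1* and *Il18r1* and 14507 bases between *Il18r1* and *Il18rap*. *Il1rl1* has 5 annotated transcripts, and the counts per gene do not separate its start sites or its membrane-bound and soluble forms.

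The 250 bases before the annotated RefSeq start are shown for *Areg*, for the upstream start of *Il1rl1* and for *Il18rap*, since *Areg* and *Il1rl1* led the results and *Il18rap* followed another pattern in the locus it shares with *Il1rl1*. All 5 genes had a RefSeq start, with 8 windows in all, and the windows of *Gata3*, *Il18r1* and the downstream start of *Il1rl1* are not printed, as they overlap annotated exons. Letters come from RefSeq on GRCm38.p6 and are written 5′ to 3′. Capitals mark matches on either strand to a GATA motif (AGATAA, the same with a final G as AGATAG, or the forms with a first T, TGATAA and its counterpart TGATAG) or to a cyclic AMP response element (CRE, TGACGTCA).
Areg, chr5:91139349-91139598, plus strand: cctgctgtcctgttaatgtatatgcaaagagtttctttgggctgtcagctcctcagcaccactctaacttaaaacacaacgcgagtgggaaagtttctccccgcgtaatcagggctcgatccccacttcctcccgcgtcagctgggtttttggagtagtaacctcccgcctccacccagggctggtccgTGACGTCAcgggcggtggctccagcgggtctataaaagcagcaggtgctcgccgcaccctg
Il1rl1 upstream start, chr1:40429320-40429569, plus strand: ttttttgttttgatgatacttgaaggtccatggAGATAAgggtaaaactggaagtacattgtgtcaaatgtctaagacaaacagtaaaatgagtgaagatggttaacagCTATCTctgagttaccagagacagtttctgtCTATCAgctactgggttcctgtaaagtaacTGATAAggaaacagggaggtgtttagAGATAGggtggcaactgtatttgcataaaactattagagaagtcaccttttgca
Il18rap, chr1:40515112-40515361, plus strand: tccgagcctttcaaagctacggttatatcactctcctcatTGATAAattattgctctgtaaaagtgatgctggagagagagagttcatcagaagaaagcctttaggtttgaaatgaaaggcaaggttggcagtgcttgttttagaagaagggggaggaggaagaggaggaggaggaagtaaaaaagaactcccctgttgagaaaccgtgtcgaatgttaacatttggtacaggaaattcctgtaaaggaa

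The *Areg* window held 1 CRE, whose first base lies 61 bases and last base 54 bases before the start. A CRE was found in 1.55% of the 32851 windows of the same length taken for all genes. The upstream window of *Il1rl1* held 5 GATA matches, the first 217 bases and the last 54 bases before the start. At least 1 GATA match was found in 26.5% of all windows, and 14 windows, 0.0426% of them, held 5 or more. *Il18rap* had 1 GATA match, 210 bases before the start, and the downstream window of *Il1rl1* had 1, 103 bases before its start. Matches to AP-1 (TGANTCA, 6.75% of windows), T-box (AGGTGTGA, 1.12%) and NBRE (AAAGGTCA, 1.34%) letters were absent from the 8 windows, and 1 RUNX match (TGTGGT, 14.1%) lay before the downstream start of *Il1rl1*. These are matches of letters and were not tested as sites.

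Every order of classes given here holds gated classes with at least 50 cells in a library. Ungated cells, which met no gate, numbered 2209 and 3123 and were left out, with *Areg* at 181 and 480 CPM. Mixed cells, which passed several gates of non-T cells or such a gate with a receptor contig, were left out as well. They numbered 323 and 557, with *Areg* at 77.9 and 166 CPM. Among the classes kept, *Areg* was highest in T cells that carried *Foxp3* together with *Ikzf2*, in both libraries. It reached 583 CPM (536 to 634) and 785 CPM (762 to 809) there. Foxp3+Ikzf2- T cells followed with 543 and 660 CPM. In the library labelled WT, type 2 T cells, defined by a UMI of *Il4*, *Il5* or *Il13*, came next with 461 CPM, and the intervals of these first 3 classes overlapped from one to the next. A single type 2 T cell held 52 of the 143 *Areg* UMIs of that class, and without it, an alternative chosen after the data were seen, the class was at 295 CPM (238 to 362), below both Foxp3+ classes. Foxp3-Ikzf2+ T cells stood apart from them at 195 CPM (178 to 213). The order in the library labelled dKO was Foxp3+Ikzf2+, Foxp3+Ikzf2-, Foxp3-Ikzf2+ at 592 CPM (572 to 612) and T cells outside every functional gate at 488 CPM, with no overlap between neighbours, and type 2 T cells were at 249.8 CPM (158 to 375, 53 cells), or at 165.5 CPM without the cell with the most UMIs.

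At the low end, *Areg* was at 60.1 and 95.4 CPM in T cells with *Ifng*, at 43.2 and 174 CPM in naive-like T cells and at 38.6 and 66.5 CPM in pDC-like cells. Invariant NKT cells, recognised by their receptor, had 2 UMIs in 51 cells and 0 UMIs in 56 cells. Myeloid-like cells were at 155 and 153 CPM, and at 98.7 and 128.5 CPM without the cell with the most UMIs. Of the 197 *Areg* UMIs in naive-like cells of the library labelled dKO, 107 lay in 1 cell, and without it the class was at 79.7 CPM (64.1 to 98.0), an interval that overlapped that of the pDC-like cells (61.9 to 71.3).

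**Figure D1:**
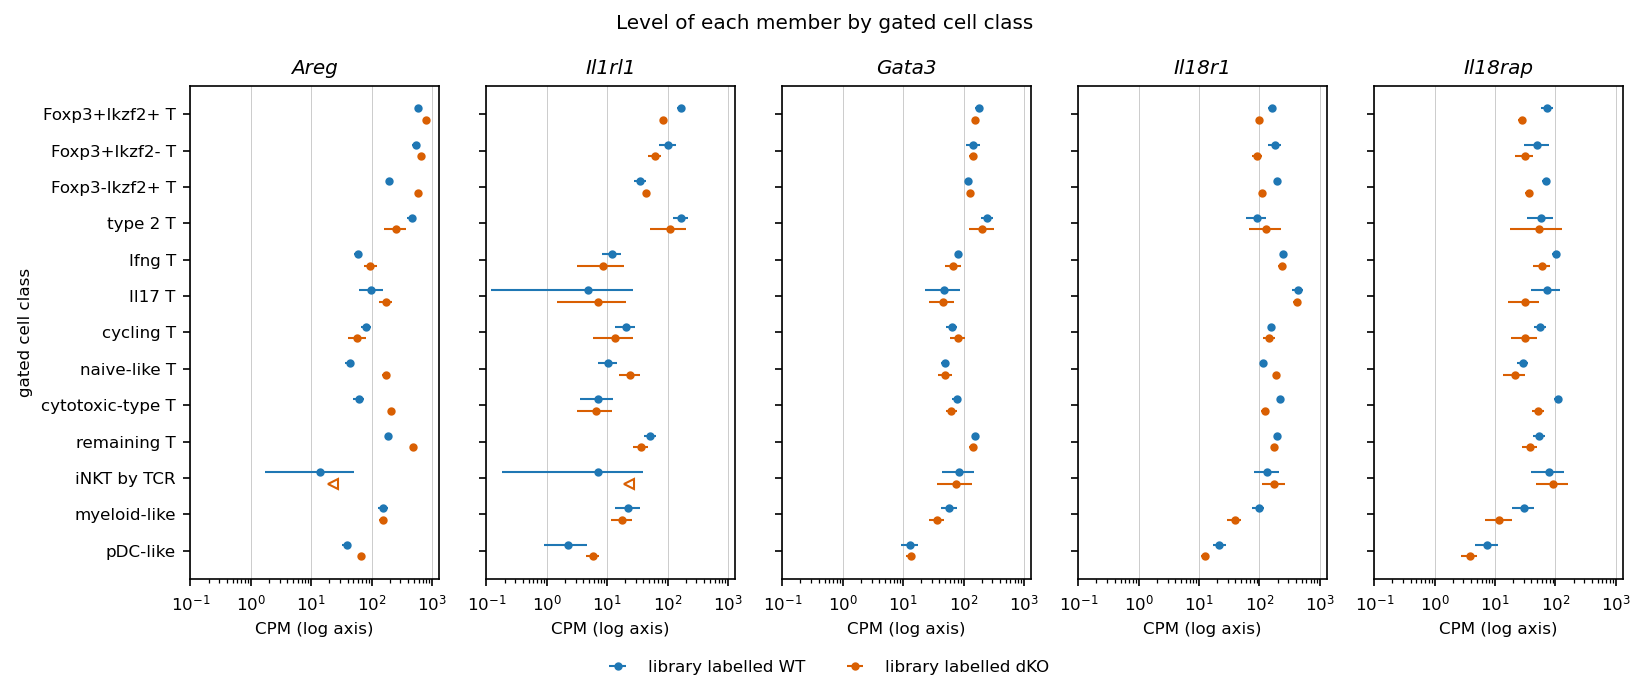
Level in CPM (log axis) of each of the 5 genes in each gated class with at least 50 cells per library. Points are the summed UMIs of 1 library, lines are exact 95% Poisson intervals, and an open triangle stands at the level of 3 UMIs where none was counted. *Areg* is highest in Foxp3+Ikzf2+ T cells, *Il1rl1* and *Gata3* have type 2 and Foxp3+Ikzf2+ T cells at the top, and *Il18r1* is highest in T cells with *Il17a* or *Il17f*.

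*Areg* UMIs were concentrated in few cells. A UMI was found in 174 of the 417 and in 1098 of the 2848 Foxp3+ T cells, with means of 4.44 and 4.56 UMIs per such cell and at most 45 and 91. Foxp3+ T cells were 3.95% of all cells of the library labelled WT and held 24.9% of its *Areg* UMIs. They were 16.3% of all cells of the library labelled dKO and held 38.6% of its *Areg* UMIs. In type 2 T cells of the library labelled WT only 19 of 128 cells had a UMI, with a mean of 7.53 and at most 52 UMIs, so the level of that class rested on fewer cells than the level of Foxp3+ T cells did.

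Among classes of that size *Il1rl1* was highest in type 2 and Foxp3+Ikzf2+ T cells. It was at 168 CPM (125 to 220) and 109 CPM (52.1 to 200) in type 2 T cells, and at 166 CPM (142 to 194) and 83.4 CPM (75.9 to 91.5) in Foxp3+Ikzf2+ T cells. Foxp3+Ikzf2- T cells had 100.6 and 61.8 CPM. Among cells of the library labelled WT the gaps from Foxp3+Ikzf2+ to Foxp3+Ikzf2- and from there to the next class, at 51.7 CPM, exceeded the intervals. Each neighbour overlapped the next in the library labelled dKO. T cells with *Il17a* or *Il17f* had 1 and 3 UMIs, and T cells with *Ifng* were at 12.0 and 8.67 CPM. At 2.23 CPM, pDC-like cells were lowest in the library labelled WT, and they were at 5.84 CPM in the other library. Invariant NKT cells had 1 UMI in 51 cells and 0 UMIs in 56 cells. They were thus last in the library labelled dKO, with an interval (0 to 28.0) that overlapped that of pDC-like cells. ILC2-like cells, innate lymphocytes known for *Il1rl1*, *Gata3* and *Areg*, numbered 2 and 4, too few for the order, and held 5 and 0 UMIs of *Areg* and 0 and 3 of *Il1rl1*.

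*Gata3* had the same classes at the top. Type 2 T cells led with 248 CPM (196 to 311) and 206 CPM (124 to 322), Foxp3+Ikzf2+ T cells followed with 181 and 152 CPM, and Foxp3-Ikzf2+ T cells were at 121 and 129 CPM. Every T cell class with at least 50 cells had at least 45.2 CPM, above the 13.1 and 13.3 CPM of pDC-like cells. Down to Foxp3-Ikzf2+ T cells, neighbours in the order overlapped in both libraries.

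*Il18r1* had another order. Among classes with at least 50 cells, T cells with *Il17a* or *Il17f* led with 427 CPM (343 to 525) and 418 CPM (359 to 485). ILC3-like cells, innate lymphocytes without T cell receptor, had 369 CPM in 60 cells and 429 CPM in 42 cells. T cells with *Ifng* were at 248 and 234 CPM. Cytotoxic-type T cells were at 223 CPM (200 to 247) and 122 CPM (105 to 141). Foxp3+Ikzf2+ T cells were in the lower part with 160 and 98.2 CPM. *Il18rap*, the accessory chain, was highest among classes of at least 50 cells in ILC3-like, cytotoxic-type and *Ifng* T cells of the library labelled WT, with 123, 110 and 101.2 CPM, and NK-like cells, 27 in number, had 153.6 CPM (66.3 to 303). Invariant NKT cells led in the library labelled dKO with 91.1 CPM (47.1 to 159) and *Ifng* T cells had 59.3 CPM. Foxp3+Ikzf2+ T cells held 72.9 and 28.2 CPM. The intervals of *Il18rap* overlapped between neighbours throughout the T cell classes.

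To compare Foxp3+ T cells with T cells that had neither *Foxp3* nor *Ikzf2*, levels were divided within each library, and a gene was called when it was at least 2-fold apart in the same direction in both. *Areg* and *Il1rl1* were called higher, 2 of the 5 genes, and none was called lower. Of the 7977 genes with enough UMIs, 2.06% were called higher and 0.476% lower. *Areg* was at 572 against 89.0 CPM, a log2 ratio of 2.68 (2.55 to 2.82), and at 763 against 240 CPM, a log2 ratio of 1.67 (1.58 to 1.75). *Il1rl1* was at 148 against 22.1 CPM and at 79.6 against 19.8 CPM, log2 ratios of 2.74 (2.47 to 3.02) and 2.01 (1.72 to 2.31).

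*Gata3* was higher in Foxp3+ T cells by log2 ratios of 1.02 (0.81 to 1.23) and 0.86 (0.70 to 1.02), and so missed the 2-fold rule. The IL-18 receptor chains did not follow. *Il18r1* had log2 ratios of -0.15 (-0.36 to 0.05) and -0.93 (-1.08 to -0.79), and *Il18rap* of 0.00 and -0.47 (-0.75 to -0.18). The median log2 ratio of the 5 genes was 1.02 and 0.86, and that of all genes tested was 0.07 and 0.09. The 5 genes were chosen with earlier results of these data known, so nothing is read from their median or from the number called.

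**Figure D2:**
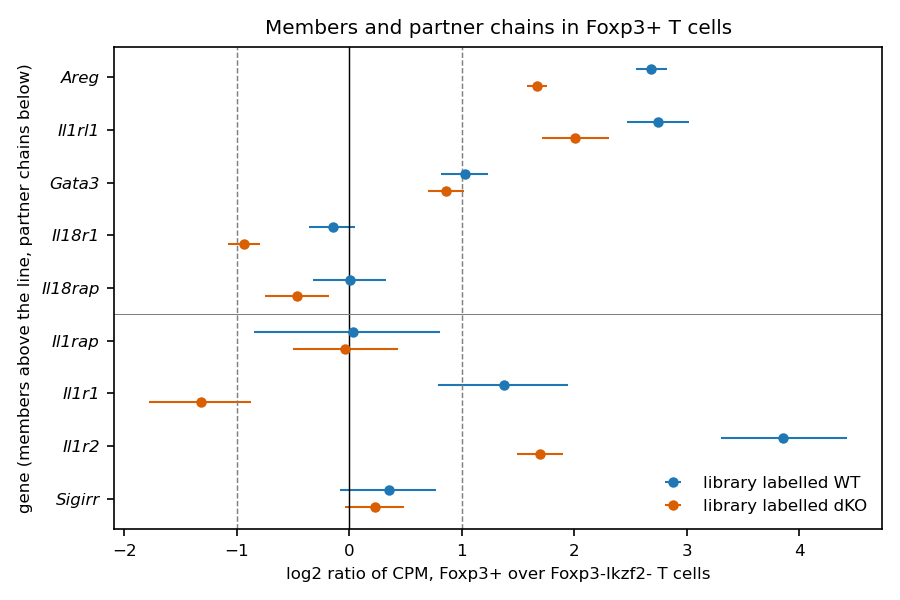
Log2 ratio of the level in Foxp3+ T cells to that in T cells with neither *Foxp3* nor *Ikzf2*, with exact 95% intervals of counting error in each library. The 5 genes stand above the line, and the partner chains *Il1rap*, *Il1r1*, *Il1r2* and *Sigirr* below it. In Foxp3+ T cells of both libraries, *Areg* and *Il1rl1* lie beyond 1, *Gata3* lies near 1, and the IL-18 receptor genes lie near or below 0.

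In Foxp3-Ikzf2+ T cells the same comparison called 1 of the 5 genes higher, *Areg*, where 0.659% of 7889 genes were called, and none lower, where 0.0634% were. *Areg* was at 195 against 89.0 CPM, a log2 ratio of 1.13 (0.97 to 1.29), and at 592 against 240 CPM, a log2 ratio of 1.30. The log2 ratios of *Il1rl1* were 0.67 and 1.17.

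The T cells with neither gene differed between the libraries in *Ctla4*, a Treg gene, with 275 and 927 CPM. In an alternative chosen after the data were seen, cells of that class with a *Ctla4* UMI were left out, which kept 3515 and 1683 cells. The log2 ratio of *Areg* in Foxp3+ T cells was then 2.83 and 2.38, and that of *Il1rl1* 2.80 and 2.07. Both genes were thus called with and without those cells.

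Of the wider pathway, 51 other genes were listed and 35 had enough UMIs, of which 9 were called higher and 1 lower in Foxp3+ T cells, where 2.06% and 0.476% of all genes tested were. The list was put together with earlier results of these data known, so nothing is read from its counts. Among the partner chains, *Il1rap*, the accessory chain of ST2, was even between the classes, with 11.1 against 10.9 CPM and 12.8 against 13.1 CPM. *Il1r2*, a decoy receptor for IL-1, was higher in Foxp3+ T cells with log2 ratios of 3.86 and 1.69. *Il1r1*, the signalling receptor for IL-1, was higher in the library labelled WT, 1.38, and lower in the library labelled dKO, -1.32. *Sigirr*, an inhibitory member of the family, had 0.35 and 0.22. The ligands *Il33* and *Il18* and the inhibitors *Il18bp* and *Il1rn* had too few UMIs, and *Il33* had 0 and 1 UMI in Foxp3+ T cells. Of the adaptors and kinases downstream, 8 of 9 were tested and none was called.

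Other ligands of the EGF family were scarce. Of 11 genes of the family and of amphiregulin release, 3 had enough UMIs and none was called, among those tested *Adam17*, a protease that sheds amphiregulin, with 37.7 against 34.8 CPM and 50.6 against 40.4 CPM, log2 ratios of 0.12 (-0.33 to 0.54) and 0.32 (0.08 to 0.57). *Egfr*, *Ereg* and *Btc* had 0 UMIs in Foxp3+ T cells. Of the genes linked to *Gata3* in type 2 cells, 8 of 11 were tested and 1 was called, *Il4*, lower by log2 ratios of -2.48 and -2.02. The tissue Treg genes were called higher in 8 of 12 cases, *Pparg*, *Klrg1*, *Tnfrsf4*, *Tnfrsf9*, *Itgae*, *Il10*, *Ctla4* and *Tigit*. *Pparg*, a nuclear receptor of Tregs in adipose tissue, had log2 ratios of 1.27 and 1.31, and *Klrg1*, a marker of differentiated tissue Tregs, 4.48 and 1.74.

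Shares of cells were compared after each cell was thinned to 1000 UMIs, since Foxp3+ T cells had medians of 2555 and 1793 UMIs and pDC-like cells of 1490 and 2990. Cells below that depth, 539 and 1579 T cells, were left out, and the gates were read again from the thinned counts. *Areg* was detected in 31.9% (69 of 216) and 29.9% (485 of 1624) of Foxp3+ T cells. Without thinning the shares were 41.7% and 38.6%. In T cells with neither *Foxp3* nor *Ikzf2* they were 5.04% and 11.4%, and in pDC-like cells 2.72% and 3.83%. The difference between Foxp3+ T cells and T cells with neither gene was 26.9 points (20.7 to 33.6) and 18.45 points (15.99 to 20.94). Foxp3-Ikzf2+ T cells lay between, with 13.6% and 26.3%.

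*Il1rl1* was detected in 13.4% (29 of 216) and 4.62% (75 of 1624) of Foxp3+ T cells, against 1.62% and 1.94% of T cells with neither gene and 0.389% and 0.303% of pDC-like cells. The difference was 11.8 points (7.54 to 17.1) and 2.68 points (1.60 to 3.89). Before thinning, 26.4% and 10.1% of Foxp3+ T cells had a UMI, against 2.97% and 2.27% of T cells with neither gene. The difference was thus larger in both libraries without thinning. It was also larger in the library labelled WT when at least 2 UMIs of *Foxp3* were required. The step in *Il1rl1* was thus seen in both libraries, and it was smaller among cells labelled dKO.

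*Gata3* was detected in 17.1% and 14.2% of Foxp3+ T cells and in 7.85% and 7.21% of T cells with neither gene. *Il18r1* was detected in 15.3% and 6.77% of Foxp3+ T cells against 15.5% and 13.7%, so that the share was even in the library labelled WT, with a difference of -0.22 points (-4.87 to 5.37), and lower by 6.89 points in Foxp3+ T cells of the library labelled dKO. *Il18rap* was detected in 6.02% and 2.52% against 5.74% and 3.49%. In pDC-like cells the last 2 genes were detected in 1.56% and 0.909% and in 0.583% and 0.331%. Between Foxp3+ T cells with and without *Ikzf2*, the interval of the difference in the *Areg* share included 0 in both libraries, 10.0 points (-3.09 to 23.0) and 3.01 points (-1.65 to 7.58).

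**Figure D3:**
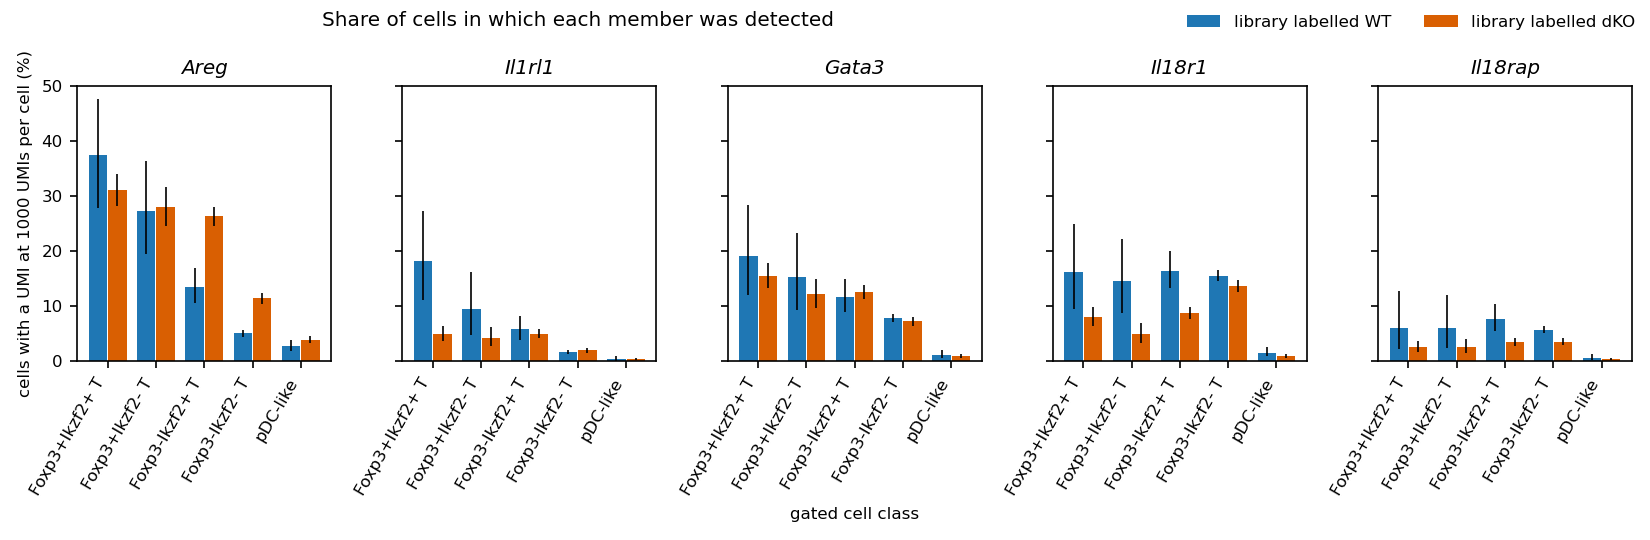
Percent of cells with a UMI of each gene after thinning every cell to 1000 UMIs, by T cell gate and in pDC-like cells as background, with Clopper-Pearson 95% intervals of counting error. *Areg* is detected in 31.9% and 29.9% of Foxp3+ T cells, and in 2.72% and 3.83% of pDC-like cells.

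Detection of the genes in the same cells was then examined in the 703 and 4073 thinned T cells with *Foxp3* or *Ikzf2*. *Areg* was found in 36.8% (21 of 57) of the cells with *Il1rl1* and in 17.6% (114 of 646) of those without in the library labelled WT, a difference of 19.2 points (6.40 to 33.3). It was found in 98 of 196 cells with *Il1rl1* and in 26.6% (1031 of 3877) of cells without in the library labelled dKO, a difference of 23.4 points (16.1 to 30.8). Thinning draws UMIs at random, and in 2 other draws, 1 of them added after the data were seen, the difference was 11.4 points (-0.22 to 24.9) and 30.5 points in the library labelled WT and 26.9 and 27.6 points in the library labelled dKO. Cells with *Il1rl1* thus carried *Areg* more often in every draw, although 1 interval of the library labelled WT included 0. The size of the difference depended on the processing, with values given in that section. It was larger in both libraries without thinning, and smaller in the library labelled dKO with 1 cell per clonotype. Within Foxp3+ T cells alone the shares were 48.3% (14 of 29) and 29.4% in the library labelled WT, where the interval of the difference, 18.9 points (-1.25 to 39.1), included 0, and 48.0% (36 of 75) and 29.0% in the library labelled dKO, 19.0 points (7.10 to 31.1).

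Cells with *Gata3* carried both genes more often in every draw of the library labelled dKO. *Il1rl1* was found in 14.9% (14 of 94) of cells with *Gata3* and in 7.06% of cells without, and in 10.8% (58 of 537) and 3.90% in the library labelled dKO. The first difference, 7.83 points (0.92 to 16.9), was 4.68 and -0.94 points in the other draws, and the second, 6.90 points (4.31 to 9.90), was 8.56 and 9.97 points. *Areg* was found in 25.5% of cells with *Gata3* and 18.2% of cells without in the library labelled WT, where the interval of the difference included 0, 7.31 points (-1.76 to 17.8), and in 39.1% and 26.0% in the library labelled dKO, 13.1 points (8.71 to 17.6). By *Il18r1*, *Areg* was found in 15.9% of cells with a UMI and 19.8% of cells without in the library labelled WT, where the interval of the difference, -3.90 points (-11.0 to 4.76), included 0, and in 36.0% and 27.0% in the library labelled dKO. The last difference, 9.02 points (3.57 to 14.7), turned to -2.22 points when cells were thinned to 2000 UMIs instead. By *Il18rap*, *Areg* was found in 26.0% of cells with a UMI and 18.7% of cells without in the library labelled WT, where the interval of the difference, 7.32 points (-4.50 to 22.0), included 0, and in 38.9% and 27.4% in the library labelled dKO, 11.5 points (2.86 to 20.7).

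*Il18rap* was found in 9.73% of cells with *Il18r1* and 6.61% of cells without in the library labelled WT, where the interval of the difference, 3.12 points (-2.18 to 10.4), included 0, and in 6.21% and 2.83% in the library labelled dKO, 3.39 points (0.94 to 6.64). Of the cells with *Foxp3* or *Ikzf2*, 366 (52.1%) and 2333 (57.3%) had no UMI of any of the 5 genes at this depth, and 245 and 1269 had a UMI of exactly 1 of them. Cells with 2 of the genes numbered 73 and 382, cells with 3 numbered 18 and 79, and cells with 4 numbered 1 and 10. No cell had a UMI of all 5, and at this depth that sets no limit on the share of cells that express all 5.

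**Figure D4:**
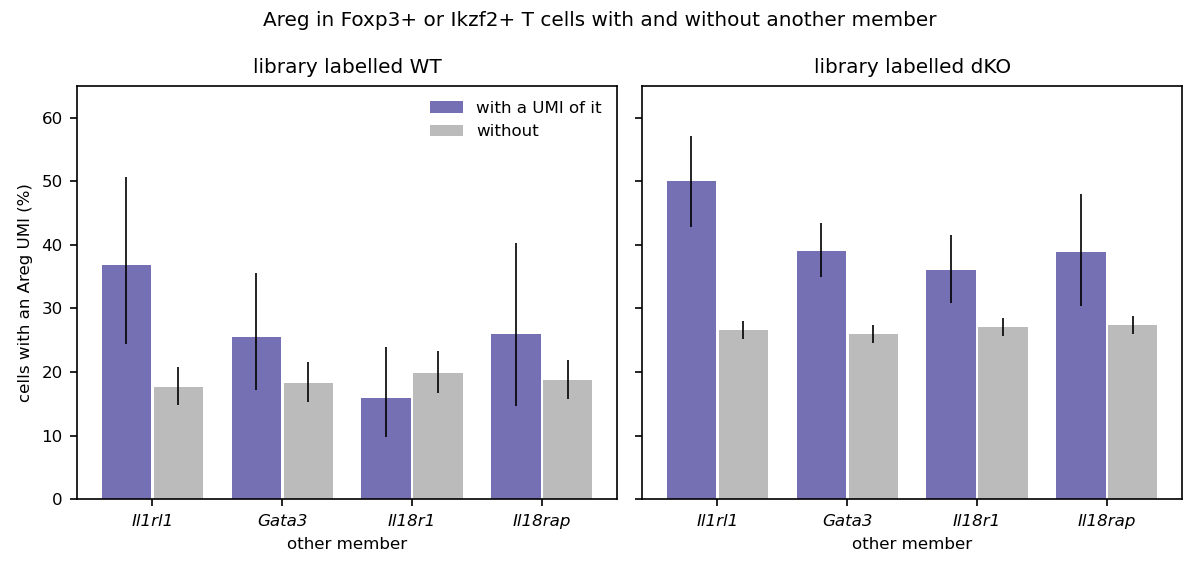
Share of T cells with *Foxp3* or *Ikzf2* that had a UMI of 1 gene, among cells with and without a UMI of another, after thinning to 1000 UMIs, with Clopper-Pearson 95% intervals in each library. *Areg* was found in 36.8% of cells with *Il1rl1* and 17.6% of cells without it in the library labelled WT, and the gap was 23.4 points in the library labelled dKO.

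Levels in the library labelled dKO were compared with those in the library labelled WT as a description of these libraries. In Foxp3+ T cells *Areg* was higher by a log2 ratio of 0.42 (0.31 to 0.53), and 4 of the genes were lower or even: *Il1rl1* at -0.90 (-1.13 to -0.65), *Gata3* at -0.18 (-0.39 to 0.03), *Il18r1* at -0.77 (-0.99 to -0.55) and *Il18rap* at -1.22 (-1.59 to -0.84). None of the 5 was 2-fold higher, where 3.14% of 8484 genes were, and 1 was 2-fold lower, *Il18rap*, where 4.51% were. With at least 2 UMIs of *Foxp3* required, *Il18r1* passed 2-fold as well, at -1.02, and with CPM averaged over single cells *Il1rl1* did, at -1.17. The higher *Areg* level did not come with a higher share of cells, which was 29.9% against 31.9%, so no order of the libraries is read from the share.

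In both classes without *Foxp3* the difference in *Areg* was larger. In Foxp3-Ikzf2+ T cells it was at 195 and 592 CPM, a log2 ratio of 1.60 (1.46 to 1.74), and it was the only one of the 5 genes 2-fold higher, where 3.68% of genes were; none was 2-fold lower, where 4.45% were. In T cells with neither gene *Areg* had a log2 ratio of 1.43 (1.31 to 1.55), again the only one 2-fold higher, where 2.38% of genes were, and none was 2-fold lower, where 1.7% were. By smaller classes it was 2.01 in naive-like, 1.76 in cytotoxic-type, 0.67 in *Ifng* and -0.89 (-1.59 to -0.24) in type 2 T cells. Without the cell with the most *Areg* UMIs in each class and library, these ratios were 1.29 (0.87 to 1.71), 2.05, 0.64 and -0.83 (-1.73 to -0.04). With 1 cell per clonotype the ratio was 3.31 in naive-like and 2.74 in cytotoxic-type T cells, and without doublets it was -0.22 in *Ifng* T cells. Over all T cells *Areg* was at 149 and 536 CPM.

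*Ctla4* differed beside *Areg* in the T cells with neither gene, with 275 and 927 CPM. In the cells of that class without a *Ctla4* UMI, the log2 ratio of *Areg* was 0.86, under 2-fold. In pDC-like cells it was 0.78 (38.6 and 66.5 CPM), and in myeloid-like cells -0.03, or 0.38 (-0.01 to 0.78) without the cell with the most UMIs in each library. The part of *Foxp3*-negative Tregs and of free RNA in the *Areg* difference was not tested.

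**Figure D5:**
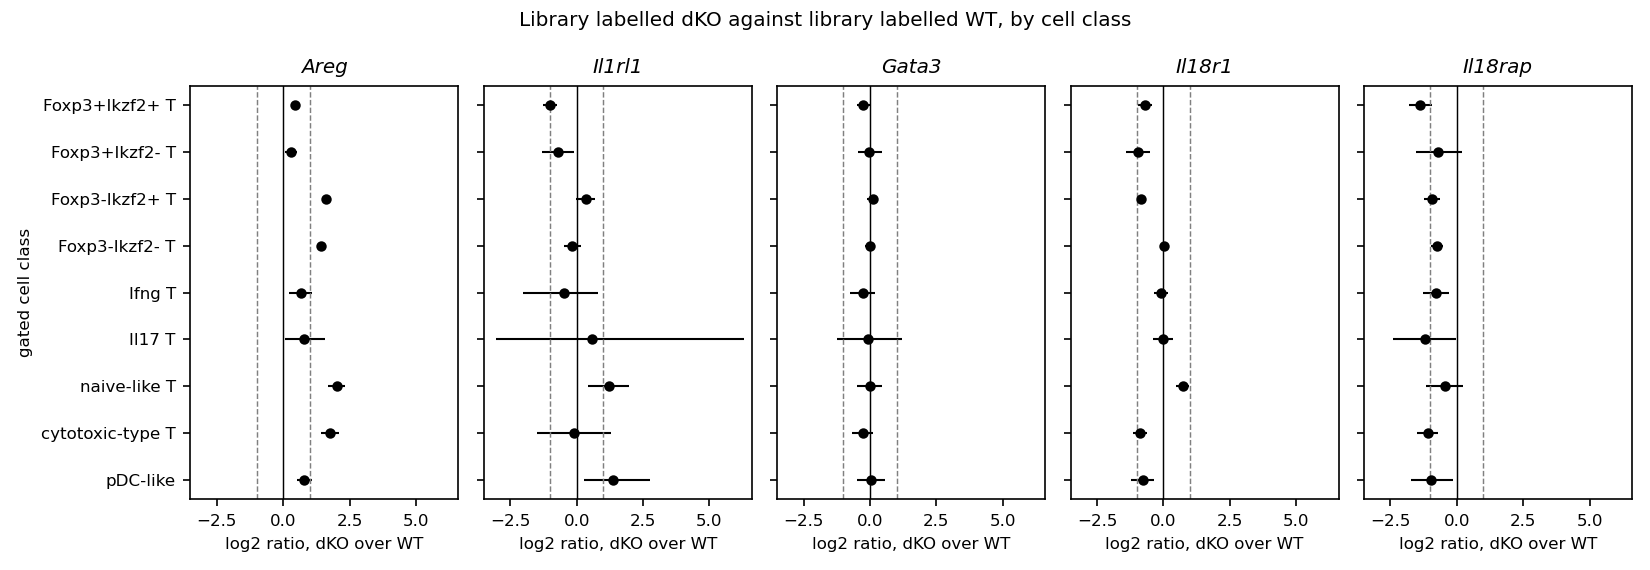
Log2 ratio of the level in the library labelled dKO to that in the library labelled WT, by gated class, for the 5 genes, with exact 95% intervals of counting error in 1 library per genotype. *Areg* lies above 0 and *Il18rap* below 0 in every class drawn. Type 2 and cycling T cells, where the *Areg* ratio was below 0, are not drawn. Neither are invariant NKT cells, where the *Il18rap* ratio was above 0.

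The receptor genes had their own patterns. *Il1rl1* was lower in Foxp3+Ikzf2+ T cells by a log2 ratio of -0.997 (-1.26 to -0.73), whereas the interval included 0 in Foxp3-Ikzf2+ T cells, 0.33 (-0.02 to 0.70), and the ratio was 1.20 in naive-like T cells and 1.39 in pDC-like cells. *Il18r1* did not differ beyond counting error in *Ifng* T cells, -0.08 (-0.34 to 0.17), and *Il17* T cells, -0.03 (-0.40 to 0.35). It was lower in cytotoxic-type T cells, -0.87, and higher in naive-like T cells, 0.74. *Il18rap* was lower in *Ifng*, -0.77, and cytotoxic-type T cells, -1.09. In pDC-like cells, the measure of background, *Il18rap* was also lower, at 7.34 and 3.78 CPM, a log2 ratio of -0.96 (-1.72 to -0.16), which was -0.79 (-1.61 to 0.08) without the cell with the most UMIs in each library. *Il18r1* was lower there as well, at 21.7 and 12.6 CPM, a log2 ratio of -0.78 (-1.21 to -0.34), beside -0.77 in Foxp3+ and -0.83 in Foxp3-Ikzf2+ T cells. The part of free RNA in these differences was not tested. *Gata3* had intervals that included 0 in Foxp3+ T cells, Foxp3-Ikzf2+ T cells and T cells with neither gene.

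Clone size was read from the T cell receptor contigs of 257 and 1361 Foxp3+ T cells. Among cells of the library labelled dKO, *Areg* was at 862 CPM (819 to 907) in 633 cells whose receptor occurred once, at 735 CPM (680 to 793) in 320 cells of clones of 2 to 9 cells, and at 489 CPM (445 to 536) in 408 cells of 26 clones of 10 or more. *Il18r1* was at 138, 104 and 23.0 CPM in the same groups and *Il18rap* at 31.9, 29.0 and 8.77 CPM, whereas *Gata3* was at 136, 164 and 136 CPM. These 3 genes other than *Gata3* were thus lowest in the large clones. *Il1rl1* was at 106, 62.6 and 49.3 CPM, and 35 of its 45 UMIs in the large clones lay in 1 clone of 155 Foxp3+ T cells.

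That clone had 114 CPM (79.2 to 158) of *Il1rl1*, 205 CPM of *Gata3*, 396 CPM of *Areg* and 13.0 CPM of each IL-18 receptor chain, and 111 more of its cells had neither *Foxp3* nor *Ikzf2*. Without it, the large clones were at 16.5 CPM (7.93 to 30.4) for *Il1rl1*, 100.9 CPM for *Gata3* and 536 CPM for *Areg*. The large clones of the library labelled WT held 10 Foxp3+ T cells, too few for an order: *Areg* was at 612, 707 and 702 CPM. Among T cells with neither gene of that library, *Il18rap* was at 39.7 CPM in cells whose receptor occurred once, at 79.3 CPM in clones of 2 to 9 cells and at 126 CPM (108 to 147) in the large clones. *Il18r1* was at 132 CPM, 241 CPM (218 to 266) and 259 CPM (233 to 288) in the same groups, and the last 2 intervals overlapped. *Areg* was at 85.7, 83.6 and 45.3 CPM.

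The pattern over classes was last set against that of every other gene, over 13 classes in each of the 2 libraries, for 5835 genes with at least 50 CPM in a class. The correlations are of log2(CPM + 1) over these 26 points, which share libraries, and are given as a description. Some points rest on very few UMIs. Invariant NKT cells, 51 and 56 in number, had 2 and 0 UMIs of *Areg* and 1 and 0 of *Il1rl1*. Of the genes named below, *Pqlc1*, *Pparg* and *Plcl1* also had a lowest level of 0 CPM. How far the correlations and their ranks depend on such points was not tested. Among the members, *Areg* and *Il1rl1* were most alike (r = 0.838), followed by *Il18r1* and *Il18rap* (0.804) and by *Il1rl1* and *Gata3* (0.734). *Areg* was unlike *Il18r1* (0.0214) and *Il18rap* (-0.104). The neighbouring genes *Il1rl1* and *Il18r1* were also unlike each other (0.0547).

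Among the genes most like *Areg* were *Cers5* (0.909), *Pqlc1* (0.871), *Il1rl1* and *Aftph* (0.828). Those most like *Il1rl1* were *Areg*, *Pparg* (0.813), *Plcl1* (0.802), *Cers5* (0.758) and *Tiam1* (0.747). *Gata3* was followed by *Jak2* (0.879), *Rab37* (0.858), *Xlr4a* (0.852), *Lcp2* (0.848) and *Pdcd1lg2* (0.846). *Il18r1* was followed by *Smap1* (0.922), *Glipr2* (0.906), *Atp10a* (0.904), *Tnfrsf25* (0.902) and *Gmfg* (0.893). *Il18rap* was followed by *Cd226* (0.939), *Ptpn22* (0.918), *Arl15* (0.916), *Stat4* (0.911) and *Nabp1* (0.910).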

How the data were processed

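Hepatic CD4+ T cells of WT and dKO mice fed CD were measured by 5′ single-cell RNA and receptor sequencing, with 1 library for each genotype. The authors deposited raw UMI counts per gene and cell, made with Cell Ranger 7.0.1 on mm10 and limited to droplets called as cells, and tables of assembled receptor contigs with their UMI counts. Neither was normalised.

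The study's filter on cells (above 200 genes, below 5% mitochondrial UMIs) kept 10556 of 10602 and 17462 of 17645 cells, with 23437516 and 37794986 UMIs. T cells had a receptor contig or at least 3 of 6 receptor and CD3 genes. UMIs were summed per class and library. A gene entered a comparison with at least 10 CPM in 1 of the groups and at least 10 UMIs, and was called at 2-fold. No p-value was computed, since each genotype had 1 library. A count of 0 allows up to 3 UMIs. UMIs were thinned with seed 1 and, as alternatives, with 2 other seeds. Clonotypes joined cells with the same receptor in a library.

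The members and gene lists were chosen with earlier results of these data known. Named were the members, the 5 genes most like each over the classes, and of the pathway list the partner chains, ligands and inhibitors and every gene called in Foxp3+ T cells. Other genes of that list named in the text were chosen after their values were seen. Receptor, immunoglobulin, mitochondrial and ribosomal protein genes were left out of the likeness ranking, and 1 gene of that ranking is not reported here.

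Scrublet's automatic threshold marked 0 cells in each library and had not worked. Doublets were kept, and as an alternative the top scores (0.8% per 1000 cells) and cells with 2 TRB chains were left out, 997 (9.45%) and 2487 (14.2%). Other alternatives were no cell filter, a ribosomal filter, T cells by contig alone, a stricter *Foxp3* gate, 1 cell per clonotype, the mean of each cell's CPM, TMM factors, no filter on low genes and other thinning. A class without *Ctla4* cells, the removal of 1 clonotype, the removal of the cell with the most UMIs of a gene from each class and 1 of the seeds were added after the data were seen. Scripts were tested on simulated data. Python 3.11.15, scanpy 1.11.5, scipy 1.17.1, numpy 2.4.6, matplotlib 3.10.9, pandas 2.3.3 and, for TMM factors alone, edgeR 4.0.16 in R 4.3.3 were used.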

Additional observations from a re-analysis of the deposited data

How the results depend on the processing

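No paired analysis was possible because each genotype had 1 library and no replicate numbers. Of 887 values of 85 results under 16 alternatives, 761 stayed within their counting interval or 1.5 times, 124 moved and 2 called values reversed. Of 641 signed values, 40 took the other sign, and 37 of these belonged to results whose own interval included 0. The other 3 were both reversed values and *Areg* in *Ifng* T cells, dKO to WT, at -0.22 without doublets in place of 0.67. No cell filter, the ribosomal filter, TMM factors, the planned second seed and leaving out the clonotype with the most Foxp3+ cells (chosen after the data were seen) moved none. Depth limits *Il1rl1* and *Il18rap* most, with 200 and 90 UMIs in Foxp3+ T cells of the library labelled WT. The cause of the changes that follow was not tested unless the alternative itself removes cells or genes.

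The difference in *Areg* by *Il18r1* in the library labelled dKO was -2.22 points at 2000 UMIs in place of 9.02, and that in *Il1rl1* by *Gata3* in the library labelled WT was -0.94 points with a further seed, chosen after the data were seen, in place of 7.83. Log2 ratios of *Areg* in Foxp3+ T cells over T cells with neither gene, 2.68 and 1.67, became 3.03 (WT) with T cells by contig alone, 2.84 (WT) with 2 *Foxp3* UMIs, 1.81 (dKO) without doublets, 2.88 (WT) with 1 cell per clonotype, 2.83 and 2.38 without *Ctla4* cells in the class compared with, and 1.75 (dKO) without the cell with the most *Areg* UMIs in each class, both chosen after the data were seen. Ratios of dKO to WT moved as follows. By contig alone *Areg* was 0.22 in Foxp3+ T cells and 1.64 in T cells with neither gene. With 2 *Foxp3* UMIs *Areg* was 0.29 and *Il18r1* -1.02 in Foxp3+ T cells. Without doublets *Areg* was 1.31 in T cells with neither gene, and without *Ctla4* cells 0.86. With 1 cell per clonotype it was 1.60, and *Gata3* and *Il18r1* were -0.45 and -0.43 in Foxp3+ T cells. With the mean of each cell's CPM *Areg* was 1.34 in Foxp3-Ikzf2+ T cells and *Il1rl1* -1.17 in Foxp3+ T cells. Members 2-fold lower there numbered 2 in place of 1 under that mean and with 2 *Foxp3* UMIs.

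Genes 2-fold lower in Foxp3+ T cells, 38, numbered 74 with 2 *Foxp3* UMIs, 61 without doublets, 61 with 1 cell per clonotype, 62 with the mean of each cell's CPM and 63 without *Ctla4* cells, where 289 were higher in place of 164. With no filter on low genes 334 were higher and 136 lower, and between libraries 725 and 822 in place of 266 and 383.

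The *Areg* share of Foxp3+ T cells exceeded that of T cells with neither gene by 34.2 (WT) and 29.0 points (dKO) at 2000 UMIs, by 35.3 and 28.1 without thinning, by 23.2 (dKO) with 1 cell per clonotype and by 24.4 (dKO) without *Ctla4* cells. The *Il1rl1* difference was 24.5 (WT) with 2 *Foxp3* UMIs, 7.87 (dKO) at 2000 UMIs, and 23.4 (WT) and 7.85 (dKO) without thinning. The *Areg* difference by *Il1rl1* was 39.0 (WT) at 2000 UMIs, 38.3 and 34.9 without thinning, and 12.4 (dKO) with 1 cell per clonotype.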

Other observations

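In thinned T cells with *Foxp3* or *Ikzf2*, *Areg* was found in 26.2% of cells with an *Nr4a1* UMI and 14.1% of cells without in the library labelled WT, and in 32.2% and 19.6% in the library labelled dKO. *Il1rl1* was found in 11.1% and 5.93%, and in 6.75% and 1.31%. Within Foxp3+ T cells alone the *Areg* difference was 8.04 points (-5.11 to 20.7) in the library labelled WT, where the interval included 0, and 12.8 points (8.10 to 17.2) in the library labelled dKO. The *Il1rl1* difference there was 5.90 points (-3.99 to 15.4), which also included 0, and 5.21 points (3.32 to 6.98). *Nr4a1* encodes an immediate early nuclear receptor induced by T cell receptor signals, and the counts do not tell its floxed exons apart.

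Among T cells with neither *Foxp3* nor *Ikzf2* of the library labelled dKO, *Areg* was at 171 CPM in 1019 cells whose receptor occurred once, at 411 CPM in 353 cells of clones of 2 to 9 cells and at 270 CPM in 345 cells of clones of 10 or more. In the last group *Il18r1* was at 65.2 CPM, against 209 CPM in cells whose receptor occurred once. The clone with the most Foxp3+ T cells supplied 111 of those 345 cells, and without it *Areg* was at 193 CPM.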
